A study of Mus musculus with 6 samples.

Results

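Bone morphogenetic protein (BMP) signalling was described through 10 genes: the ligand genes Bmp2, Bmp4 and Bmp7, the protease gene Bmp1, the receptor genes Bmpr1a and Bmpr2, the inhibitory SMAD gene Smad6, and the ID genes Id1, Id2 and Id3. They were taken by symbol from 48820 gene identifiers, with earlier results of these data known, and 8 of the 10 passed the filter on low counts and were tested. The values come from RNA-seq of tumour spheroids made with the 4T1 line, which is derived from a mouse mammary carcinoma and labelled as triple-negative, with 3 wild-type (WT) libraries and 3 libraries of a line in which LATS1 and LATS2 were both knocked out (dKO). LATS1 and LATS2 are Hippo pathway kinases, and they keep the transcriptional coactivators YAP and TAZ in check by phosphorylating them. Both groups were kept as spheroids in RPMI with fetal bovine serum and antibiotics, and no treatment is labelled. The labels do not say how the knockout was made, whether the dKO line is 1 clone, or whether the 3 libraries of a group came from separate cultures. The p-values therefore measure the spread between these libraries, which may not be that between separate cultures. The knockout cannot be told apart from any other difference between the lines.

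BMP ligands are secreted dimers that bring together type I receptors, such as the product of Bmpr1a (ALK3), and type II receptors, such as the product of Bmpr2. The activated type I receptor phosphorylates SMAD1, SMAD5 and SMAD9, which enter the nucleus with SMAD4 and switch on target genes, among which the ID genes and the feedback inhibitor Smad6 are the most widely used readouts. ID proteins have no DNA-binding region of their own. They hold back differentiation by binding E proteins and keeping them off E-box sites, and in breast cancer cells Id1 and Id3 are known for their part in self-renewal and lung colonization.

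Total estimated counts ran from 38194478 to 49630116 per library. Lats1 was lower in every library labelled dKO, at 51.5, 53.0 and 48.0 CPM (counts scaled to library size, with TMM factors) against 158, 146 and 155 in WT. Lats2 was higher there, at 86.7, 83.3 and 63.5 CPM against 28.3, 30.5 and 22.7, with log2 fold changes of -1.59 ± 0.07 for Lats1 and 1.52 ± 0.15 for Lats2 (SE, with Benjamini-Hochberg or BH-adjusted p = 4.66e-07 and 3.46e-05 in edgeR). A gene count cannot show a small indel, so Lats2 does not check the knockout, and each direction below is between libraries as labelled. In a principal component analysis, WT 2 and dKO 3 were separated from their groups on the second component, which held 4.82% of the variance against 88.7% for the first. The 6 epithelial markers were all tested, 2 rose and 4 fell, with summed levels of 4242 to 4712 CPM in WT and 3125 to 3788 CPM in dKO. The 6 fibroblast markers summed to 8.66 to 14.4 CPM in WT and 2.26 to 4.47 CPM in dKO, mostly from Col1a1, with Lum at 0 throughout. Of the 2 that were tested, Col1a1 fell, from a mean of 12.1 to 2.46 CPM, and Col1a2 rose. Col1a2 had 0, 4 and 0 counts in WT and 28, 38 and 21 in dKO. It passed the filter through the dKO libraries and so had to differ. The 6 endothelial markers summed to at most 1.36 CPM, with Kdr, Emcn and Cldn5 at 0. The 6 leukocyte markers summed to 2.08 to 2.28 CPM in WT and 14.4 to 20.4 CPM in dKO, mostly from Cd68. Both that were tested, Cd68 and Itgam, rose. Itgam had 0 counts in WT and 13, 13 and 20 in dKO, so it passed the filter through the dKO libraries and had to differ. Adgre1 had 0 counts in WT and 81, 103 and 0 in dKO, Cd79a had 0, 7 and 0 in WT and 19, 12 and 9 in dKO, Ptprc was at 0 in WT and at most 17 counts in dKO, and Cd3e was at 0 throughout. The part of any of these markers in the results was not tested, and in bulk RNA fewer cells of a type and less RNA per cell cannot be told apart.

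Of the 8 tested genes, 6 were lower in the libraries labelled dKO, none was higher, and Bmp7 and Bmpr2 did not pass the test. At an unadjusted p under 0.05, and also by DESeq2 at an adjusted p under 0.05, the counts were the same, with 0 higher and 6 lower. The falls ran from 1.57-fold for Bmpr1a to 38.3-fold for Id2, and in all 6 the WT and dKO ranges did not overlap. The median log2 fold change of the 8 was -1.67, beside -0.01 over all tested genes. The background is wide, since 57.3% of the 15807 tested genes were called by edgeR at an adjusted p under 0.05, 28.6% higher and 28.7% lower in dKO, and 65.6% had groups that did not overlap. The count of 6 in 8 is thus not far from the background, and the share that was lower, 6 of 8 against 28.7%, is described here and not tested. By size, Id2 had a larger absolute log2 fold change than 96.2% of tested genes, Id3 than 93.4%, Bmp1 than 90.4%, Smad6 than 85.4% and Id1 than 80.3%. Bmpr1a stood near the middle, at 53.4%, and Bmp7 and Bmpr2 were near the bottom, at 3.19% and 3.15%.

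**Figure D1:**
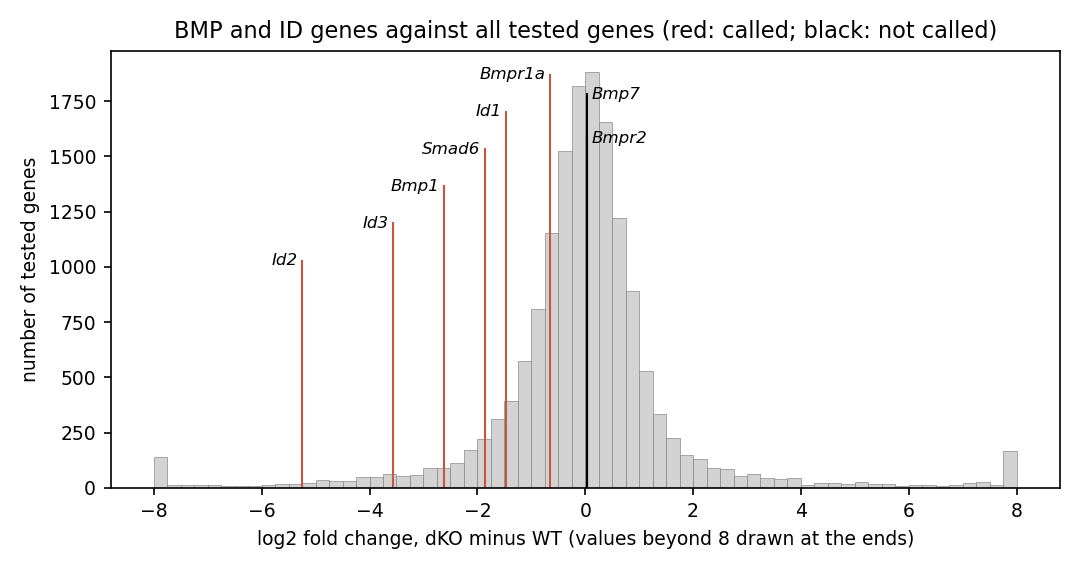
Histogram of log2 fold changes (dKO minus WT, x axis) over the 15807 tested genes (number of genes, y axis), with values beyond 8 drawn at the ends. Vertical lines mark the 8 tested BMP and ID genes and their heights only separate the labels; Id2 at -5.26 and Id3 at -3.56 lie far to the left, and Bmp7 and Bmpr2 lie at 0.03.

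Of the ligand genes, 1 was expressed above a trace. Bmp2, the osteogenic ligand (chromosome 2, GRCm38, 133552159 to 133562885, plus strand), had 0 counts in all 6 libraries. Bmp4, a ligand with wide roles in embryonic and mammary development (chromosome 14, 46383520 to 46390669, minus strand), had 0 counts in 5 libraries and 4 counts in dKO 1. Single fragments appear to be worth up to 4 counts in this table, so a gene at 0 could have up to 12 counts, or 0.243 to 0.314 CPM, depending on the library. Bmp2 and Bmp4 stayed at or under that limit in each group, and no fold is given for either. Bmp4 also overlaps the antisense genes Gm15217 and Gm15222.

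Bmp7 (chromosome 2, 172868012 to 172940321, minus strand), which encodes a ligand that can signal through the type I receptors ALK2 and ALK3 and is best known from kidney and bone, was the ligand gene that could be tested. It stood at 6.08, 4.81 and 4.46 CPM in WT 1, 2 and 3 and at 6.59, 4.52 and 4.61 CPM in dKO 1, 2 and 3. Replicate 1 was the highest in both groups, and the ranges overlapped. The log2 fold change was 0.03 ± 0.24 (SE, edgeR BH-adjusted p = 0.920), and the WT level was above that of 33.0% of tested genes. No change of Bmp7 was detectable at this spread: leaving out dKO 1 gave -0.16 and leaving out WT 1 gave 0.17.

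Bmp1 (chromosome 14, 70474558 to 70520234, minus strand) shares the name but is not a ligand. It encodes a tolloid-family metalloprotease that removes the C-terminal propeptide of fibrillar procollagens and cleaves chordin, a BMP antagonist. It was the most abundant of the 10 genes in WT, at 1260, 1215 and 1240 CPM, above 99.6% of tested genes. In dKO it stood at 195, 194 and 212 CPM. The spread within each group was small, and the groups lay 6.18-fold apart, with a log2 fold change of -2.63 ± 0.07 (SE, edgeR BH-adjusted p = 3.01e-08). Across 16 alternative settings the log2 fold change stayed between -2.68 and -2.60, the narrowest range of the 6 genes that fell.

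Of the receptor genes, Bmpr1a fell and Bmpr2 did not pass the test. Bmpr1a (chromosome 14, 34410734 to 34503341, minus strand), the type I receptor gene, was at 161, 157 and 169 CPM in WT and at 119, 98.7 and 91.1 CPM in dKO. Every WT library was above every dKO library, and dKO 1 was the nearest to WT. The log2 fold change was -0.66 ± 0.10 (SE, edgeR BH-adjusted p = 0.000536), the smallest of the 6 falls, and it did not pass when tested against a change of 1.5-fold (adjusted p = 0.253). Bmpr1a shares exonic sequence with the antisense gene Gm17110, and reads of the pair cannot be told apart without strand. Bmpr2 (chromosome 1, 59763400 to 59879014, plus strand), the type II receptor gene, was at 151, 136 and 156 CPM in WT and at 156, 155 and 142 CPM in dKO. Its groups overlapped, with a log2 fold change of 0.03 ± 0.08 (edgeR BH-adjusted p = 0.750) and a range of -0.03 to 0.08 over the 16 settings.

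Within a library, the ratio of Bmpr1a to Bmpr2 per length of exon does not depend on how libraries are scaled. It was 3.11-fold in WT (geometric mean) and 1.92-fold in dKO. On the log2 scale the ratio went from 1.64 ± 0.06 to 0.94 ± 0.15 (SD, n = 3), and all 3 WT values were above all 3 dKO values. The exact two-sided permutation test gave p = 0.1, the smallest that 3 against 3 libraries allow, and the adjusted value over 4 ratios was also 0.1.

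Smad6 (chromosome 9, 63953076 to 64022059, minus strand) encodes the inhibitory SMAD that blocks type I BMP receptors and is itself a target of the pathway. It stood at 11.4, 11.96 and 13.6 CPM in WT and at 2.33, 3.19 and 4.61 CPM in dKO. No dKO library reached the WT range, and dKO 3 was the highest and dKO 1 the lowest of the dKO group. The log2 fold change was -1.87 ± 0.25 (SE, edgeR BH-adjusted p = 0.000249), a 3.64-fold lower level. Its WT level was low, above that of 42.1% of tested genes, and the counts behind the dKO values were 89, 130 and 198.

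The RefSeq table of promoter windows (GRCm38.p6, 250 bases before to 50 after the start) held 6 of the 10 genes: Bmp4, Bmpr1a, Bmpr2, Smad6, Id2 and Id3. Bmp1, Bmp2, Bmp7 and Id1 were not matched. Each window was searched on both strands for 4 motifs, namely the TEAD motif GGAATG, through which YAP and TAZ act on DNA, the SMAD palindrome GTCTAGAC, the GC-rich SMAD core GGCGCC and the E-box CACGTG. The stretches below are shown because they carry a SMAD or TEAD motif in the 3 genes among the 6 with the largest falls. They are written in lower case, 5′ to 3′ on the strand of the gene, with the motif in capitals. The Smad6 stretch is chr9:64022056-64022309 and ends with the SMAD palindrome on the start site itself, 4 bases before and 4 after it. The Id2 stretch is chr12:25096254-25096342 and holds the GC-rich core at -231 to -226 from the start used for the window. It lies inside the Id2 gene as annotated in GENCODE (25093799 to 25097140, minus strand), downstream of its annotated 5′ end and outside annotated exons. The Id3 stretch is chr4:136143607-136143636 and holds the TEAD motif on the other strand, at -203 to -198, inside the annotated 5′ UTR.
Smad6: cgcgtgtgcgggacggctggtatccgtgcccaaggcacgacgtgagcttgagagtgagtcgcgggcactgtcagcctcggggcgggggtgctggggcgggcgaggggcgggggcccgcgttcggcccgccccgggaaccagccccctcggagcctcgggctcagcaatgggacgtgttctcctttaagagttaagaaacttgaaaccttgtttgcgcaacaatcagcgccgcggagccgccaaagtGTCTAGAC
Id2: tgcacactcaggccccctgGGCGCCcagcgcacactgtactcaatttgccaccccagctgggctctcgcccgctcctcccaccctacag
Id3: tcagcgcttcctCATTCCtcgcatccgagg

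The SMAD palindrome is rare, in 0.213% of 32851 promoter windows (70 windows), and Smad6 was its single match among the 6 genes. The GC-rich core is common, in 11.9% of windows, and was found in Bmpr1a, Bmpr2 and Id2. Bmpr1a and Id2 fell while Bmpr2 did not pass the test. The TEAD motif was in 14.7% of windows and in Id3 alone of the 6. The E-box sequence CACGTG was in 7.15% of windows and in Bmp4 alone, and no other E-box sequence was searched. A match describes letters in a window and is not a measured binding site, and a window without one says nothing of the factor.

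All 3 ID genes fell. Id1 (chromosome 2, 152736251 to 152737410, plus strand), the ID gene most often used as a BMP readout, stood at 83.3, 87.9 and 87.3 CPM in WT and at 26.2, 27.5 and 39.8 CPM in dKO. All dKO values were under all WT values, with dKO 3 the highest of the dKO group. The log2 fold change was -1.47 ± 0.15 (SE, edgeR BH-adjusted p = 4.71e-05), or 2.76-fold lower.

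Id2 (chromosome 12, 25093799 to 25097140, minus strand), which is known for its part in mammary alveolar differentiation, had the largest fall of the 10 genes. It was at 69.3, 77.0 and 68.8 CPM in WT and at 1.10, 2.51 and 1.98 CPM in dKO, where the counts were 42, 102 and 85. The dKO libraries stood far below WT and differed among themselves, with dKO 1 the lowest. The log2 fold change was -5.26 ± 0.24 (SE, edgeR BH-adjusted p = 5.18e-07), or 38.3-fold lower, and leaving out 1 dKO library moved it between -5.53 and -5.00.

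Id3 (chromosome 4, 136143497 to 136145755, plus strand), which often acts beside Id1, was at 192, 196 and 169 CPM in WT and at 14.4, 12.9 and 19.8 CPM in dKO. The groups were well apart, and dKO 3 was again the least reduced. The log2 fold change was -3.56 ± 0.16 (SE, edgeR BH-adjusted p = 4.28e-07), or 11.8-fold lower. In dKO 3, Id1, Id3, Smad6 and Bmp1 were all higher than in dKO 1 and dKO 2, while Id2 and Bmpr1a were not. Without WT 2 and dKO 3 together, the same 6 of the 8 tested genes were called and none rose.

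**Figure D2:**
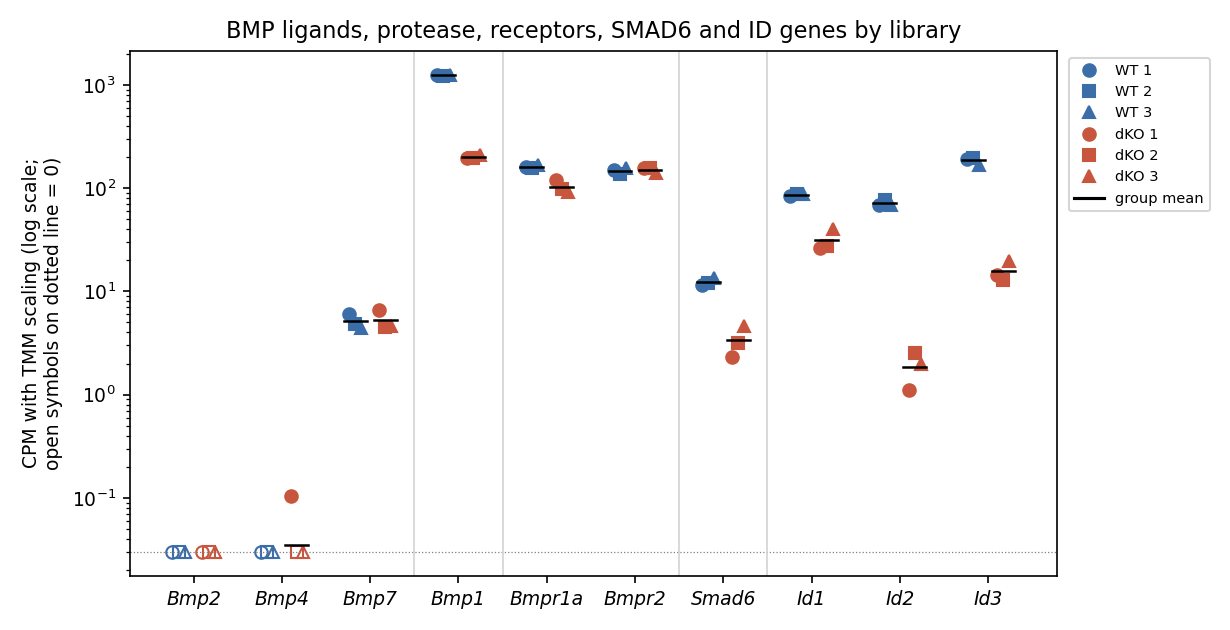
Level of each of the 10 genes in each library (CPM with TMM scaling, log axis), with WT in blue, dKO in red, a symbol for each replicate number and a bar at the group mean. Open symbols on the dotted line are 0; Bmp2 and nearly all of Bmp4 lie there, Bmp7 and Bmpr2 overlap between groups, and the other 6 genes are lower in every dKO library.

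The ID genes were compared with each other after division by exon length (CPM per kb, over the union of exons of all annotated transcripts). Summed over Id1, Id2, Id3 and Id4, the ID transcripts reached 207, 217 and 198 CPM per kb in WT and 31.1, 31.9 and 46.2 CPM per kb in dKO. The sum was thus reduced in every dKO library, from a mean of 207 ± 9.60 to 36.4 ± 8.49 (SD, n = 3). Its make-up also differed. In WT, Id3 held 49.9% ± 2.02 of the sum, Id1 35.9% ± 1.87 and Id2 14.2% ± 0.426. In dKO, Id1 held 73.7% ± 0.928, Id3 24.1% ± 1.68 and Id2 2.14% ± 0.947. Id1 thus took the first place from Id3 in all 3 dKO libraries, at a level below its own in WT. Id4, the remaining ID gene, had 3, 2 and 7 counts in WT and 0 in dKO and was not tested.

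Ratios within a library were compared next. Id1 stood 2.53-fold above Id2 in WT and 36.1-fold above it in dKO (geometric means per kb), a log2 ratio of 1.34 ± 0.08 against 5.17 ± 0.58 (SD, n = 3). Against Id3, Id1 was at 0.718-fold in WT and 3.06-fold in dKO, a log2 ratio of -0.48 ± 0.13 against 1.61 ± 0.12. For Id2 against Id3 the log2 ratio went from -1.82 ± 0.09 to -3.56 ± 0.69, and the dKO values were scattered, from -4.13 in dKO 1 to -2.80 in dKO 2. No ratio overlapped between the groups. Each of the 3 gave p = 0.1 in the exact two-sided permutation test, the smallest possible here, and an adjusted value of 0.1 over the 4 ratios. The fitted falls of the ID genes were thus in the order Id2, Id3, Id1, and their inequality reached the limit of the ratio test without passing 0.05.

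**Figure D3:**
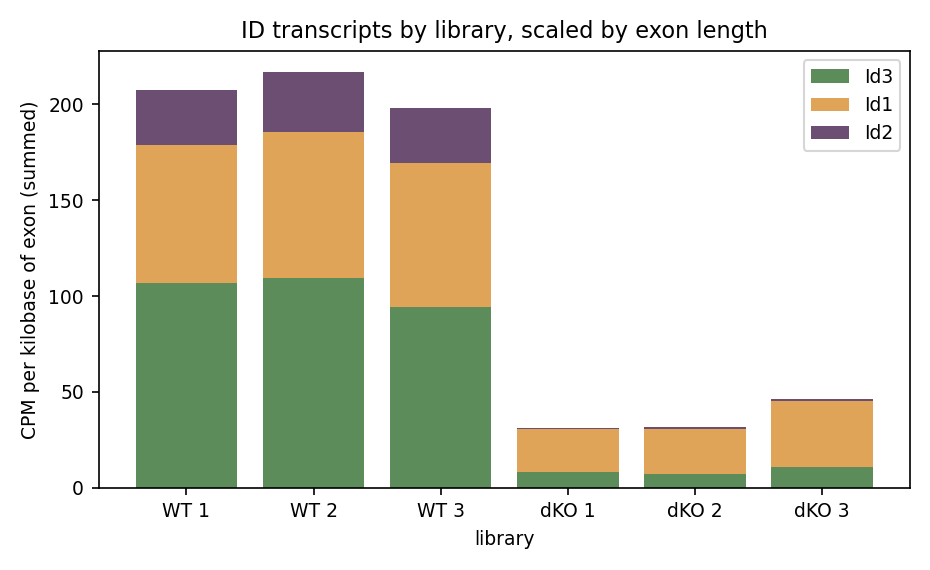
Stacked bars of Id3, Id1 and Id2 in each library, in CPM per kb of exon (y axis, from 0). The WT bars reach 198 to 217 with Id3 the largest share, and the dKO bars reach 31.1 to 46.2 with Id1 the largest share and Id2 barely visible.

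Per length of exon, the order of the 10 genes in WT was Bmp1 (140 CPM per kb), Id3 (104), Id1 (74.3), Id2 (29.4), Bmpr1a (25.5), Bmpr2 (8.22), Smad6 (3.85) and Bmp7 (1.27), followed by Bmp2 and Bmp4 at 0. No neighbours among the 8 detected genes overlapped in WT. In dKO the order was Id1 (26.9 ± 6.48 CPM per kb), Bmp1 (22.6 ± 1.12), Bmpr1a (16.2 ± 2.28), Id3 (8.78 ± 2.03), Bmpr2 (8.403 ± 0.447), Bmp7 (1.30 ± 0.292), Smad6 (1.05 ± 0.359) and Id2 (0.763 ± 0.292). Id1 and Bmp1 overlapped there, as did Id3 and Bmpr2, Bmp7 and Smad6, and Smad6 and Id2. Id2 went from the fourth place to the last of the detected genes. The union of exons is long for Bmpr2, at 17983 bases, so its level per kb is understated where long isoforms are rare. The same limit holds for the ID genes, with unions of 1160 bases for Id1, 2438 for Id2 and 1791 for Id3. Their shares, ratios and order within a group depend on these lengths.

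Over the 6 libraries, the genes with log2 levels closest in pattern to Id1 were Shc1, Prr12 and Tnrc18, at Euclidean distances of 0.160, 0.199 and 0.205 among 10738 genes with a mean of at least 5 CPM. Their log2 fold changes were -1.55, -1.44 and -1.36, beside -1.47 for Id1. Falls close to that of Id1 follow from this choice, since the distance was taken over the same 6 libraries, and are not a separate result. Bmp4 was too low for such a search.

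A further 70 genes of the pathway and of its partners were set beside these 10, in 7 lists. Of the 34 that were tested, 8 rose, 17 fell and 9 did not pass, against a background of 28.6% higher and 28.7% lower. The calls of Gdf7, Pcsk6, Nog, Fstl1, Bmper and Fst are in genes that passed the filter through 1 group and so had to differ. Of all 70 genes, 18 had 0 counts in every library. Among 12 other BMP and GDF ligand genes, Gdf7, a ligand of neural development, was alone in being tested, and it had 16, 17 and 22 counts in WT and 0 in dKO. It fell at least 1.37-fold (edgeR BH-adjusted p = 0.00238) and is named after its values were seen. Gdf7 passed the filter through the WT libraries and so had to differ. Bmp7 was thus the most abundant ligand gene of all 15, at 1.27 CPM per kb in WT against 0.286 for Gdf7, the next.

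Of the 11 other receptor and co-receptor genes, 6 were tested, with 1 higher and 4 lower. Rgma, a BMP co-receptor, fell from 21.7 ± 1.42 to 2.27 ± 0.891 CPM (SD, n = 3), with a log2 fold change of -3.25 ± 0.26 (SE, edgeR BH-adjusted p = 1.05e-05). Acvr1, which encodes the type I receptor ALK2, the co-receptor gene Rgmb and the type II receptor gene Acvr2b also fell, with log2 fold changes of -1.34 ± 0.18, -0.72 ± 0.13 and -1.25 ± 0.29 (edgeR BH-adjusted p = 0.000230, 0.00124 and 0.00512). Eng, the endoglin co-receptor gene, rose by 0.39 ± 0.09 (adjusted p = 0.00686). Eng, Rgma and Acvr2a share exonic sequence with the opposite-strand genes Fpgs, A730056A06Rik and Orc4. Reads of each pair cannot be told apart without strand. Acvr2a, another type II receptor gene, had means of 22.0 (WT) and 26.5 CPM (dKO) and did not pass (adjusted p = 0.124), but it passed without dKO 3 (0.0353). Eng and Acvr2a fall outside the rule for named genes and are named after their values were seen. Among the type I receptor genes, Bmpr1a was the highest per length in both groups, at 25.5 CPM per kb in WT against 11.4 for Acvr1, with Bmpr1b at 2 counts in all and Acvrl1 at 0.

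Among 9 other SMAD genes and regulators, 2 rose and 4 fell of 8 tested. The receptor-activated Smad1 fell from 40.7 ± 2.15 to 17.9 ± 3.76 CPM and Smad5 from 130 to 92.0 CPM, with log2 fold changes of -1.18 ± 0.15 and -0.50 ± 0.07 (edgeR BH-adjusted p = 0.000151 and 0.000217), and Smad9 was at 0. Smad4, the shared partner, rose by 0.62 ± 0.10 (adjusted p = 0.000654) and was the highest per length of the 6 SMAD genes followed here (Smad1, Smad4, Smad5, Smad6, Smad7 and Smad9) in both groups, at 26.1 and 40.2 CPM per kb. Smad7, the second inhibitory SMAD gene, had a log2 fold change of -0.69 ± 0.09, beside -1.87 ± 0.25 for Smad6, and the ubiquitin ligase gene Smurf1 one of 0.51 ± 0.07 (edgeR BH-adjusted p = 0.000182 and 0.000312).

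Of the 17 genes of secreted antagonists and modulators, 8 were tested, 5 rose and 2 fell. The rises of Nog, Fstl1, Bmper and Fst are in genes at 0 in 2 or 3 WT libraries, which passed the filter through the dKO libraries and so had to differ, and Crim1 was the rise in a gene expressed in both groups. Nog, which encodes the BMP-binding antagonist noggin, had 0 counts in WT and 205, 189 and 141 in dKO, at least 16.6-fold higher (edgeR BH-adjusted p = 2.1e-05). Fstl1, which encodes a follistatin-like protein, had 0 in WT and 228, 207 and 294 counts in dKO, at least 22.4-fold higher, and Bmper, an extracellular BMP regulator gene, had 0 in WT and 235, 194 and 78 in dKO, at least 15.9-fold higher (edgeR BH-adjusted p = 8.01e-06 and 0.000138). Crim1, whose membrane protein binds BMPs, rose from 95.7 ± 13.2 to 266 ± 22.5 CPM (edgeR BH-adjusted p = 6.3e-06). Crim1 shares exonic sequence with the opposite-strand gene Fez2, and Fst does with Gm47040. Reads of each pair cannot be told apart without strand. Twsg1, a BMP-binding modulator gene, fell from 191 ± 16.3 to 91.3 ± 11.1 CPM (edgeR BH-adjusted p = 3.6e-05), and Nbl1, another antagonist gene, from 5.44 to 1.66 CPM. Fst, the follistatin gene, had 30, 0 and 0 counts in WT and 146, 174 and 221 in dKO (edgeR BH-adjusted p = 0.0119), a call lost with DESeq2 (0.0755) and without WT 2 and dKO 3 (0.0555). Nog, Bmper and Fst had dKO means below 5 CPM and are named after their values were seen. The transcripts of the target of BMP1, chordin (Chrd), were at 5 counts or fewer in every library. Chrd shares exonic sequence with the opposite-strand gene Thpo.

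**Figure D4:**
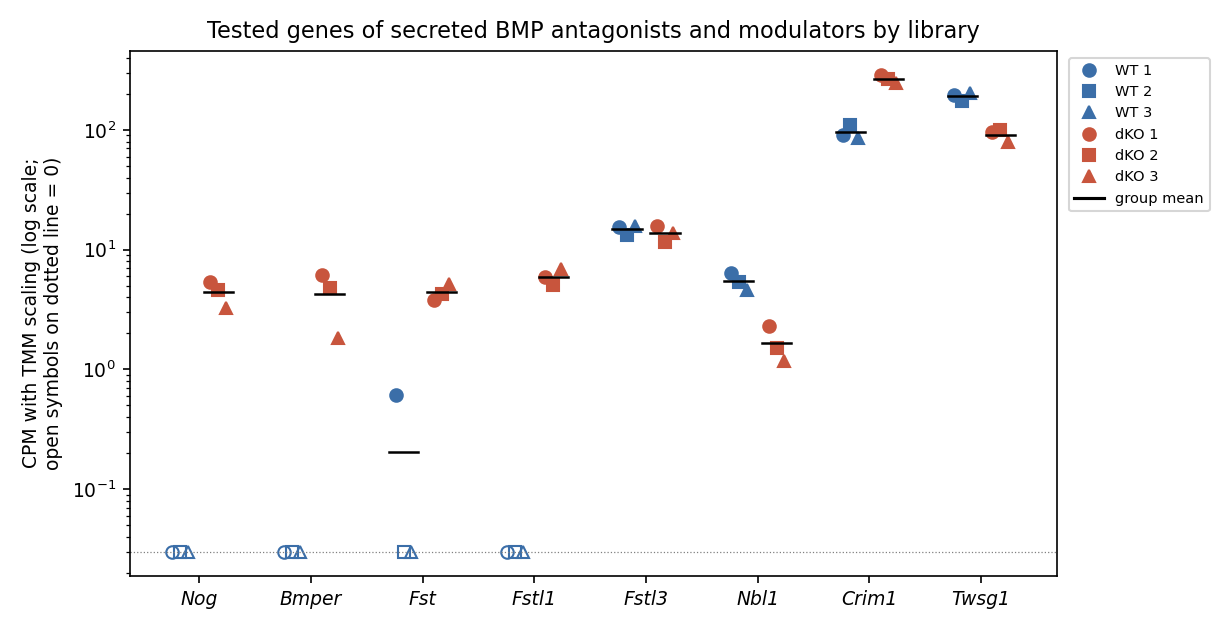
Level of the 8 tested antagonist and modulator genes in each library (CPM with TMM scaling, log axis), drawn as for the 10 BMP and ID genes, with 0 on the dotted line. Nog, Bmper and Fstl1 are at 0 in all WT libraries and Fst in WT 2 and WT 3, Crim1 is higher in every dKO library, and Twsg1 and Nbl1 are lower.

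Beside Bmp1, the 8 protease, enhancer and convertase genes had no rise and 2 falls among 5 tested. Furin, a convertase gene whose product matures BMP precursors, fell from 246 ± 41.2 to 145 ± 9.44 CPM (edgeR BH-adjusted p = 0.000520), with a log2 fold change of -0.76 ± 0.12 beside -2.63 ± 0.07 for Bmp1. The other fall was in Pcsk6, a convertase gene named after its values were seen, with 120, 98 and 177 counts in WT and 0, 0 and 7 in dKO. It passed the filter through the WT libraries and so had to differ. Its log2 fold change was -5.61 ± 0.88 (edgeR BH-adjusted p = 0.000586), a size set by the 7 counts of dKO 3. Pcsk6 shares exonic sequence with the same-strand gene Gm45213. The tolloid relatives Tll1 and Tll2 were at 4 counts or fewer in every library. Of 10 other BMP target genes, 3 were tested, and Dlx3 and Hey1 did not pass. Runx2, an osteoblast regulator gene, was lower, with a log2 fold change of -1.94 ± 0.10 (edgeR BH-adjusted p = 6.43e-07). Runx2 and Furin share exonic sequence with the opposite-strand genes Runx2os1 and Gm44851, and reads of each pair cannot be told apart without strand. All 3 E-protein genes fell, with log2 fold changes of -1.75 ± 0.14 for Tcf3, -0.99 ± 0.07 for Tcf4 and -0.47 ± 0.07 for Tcf12 (edgeR BH-adjusted p = 1.26e-05, 6.89e-06 and 0.000417), so the ID genes and the genes of the proteins they bind were both lower. Id2 and Id3 had larger fitted falls than any of the 3 E-protein genes, and Id1 had a smaller one than Tcf3; these differences between genes were not tested.

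**Figure D5:**
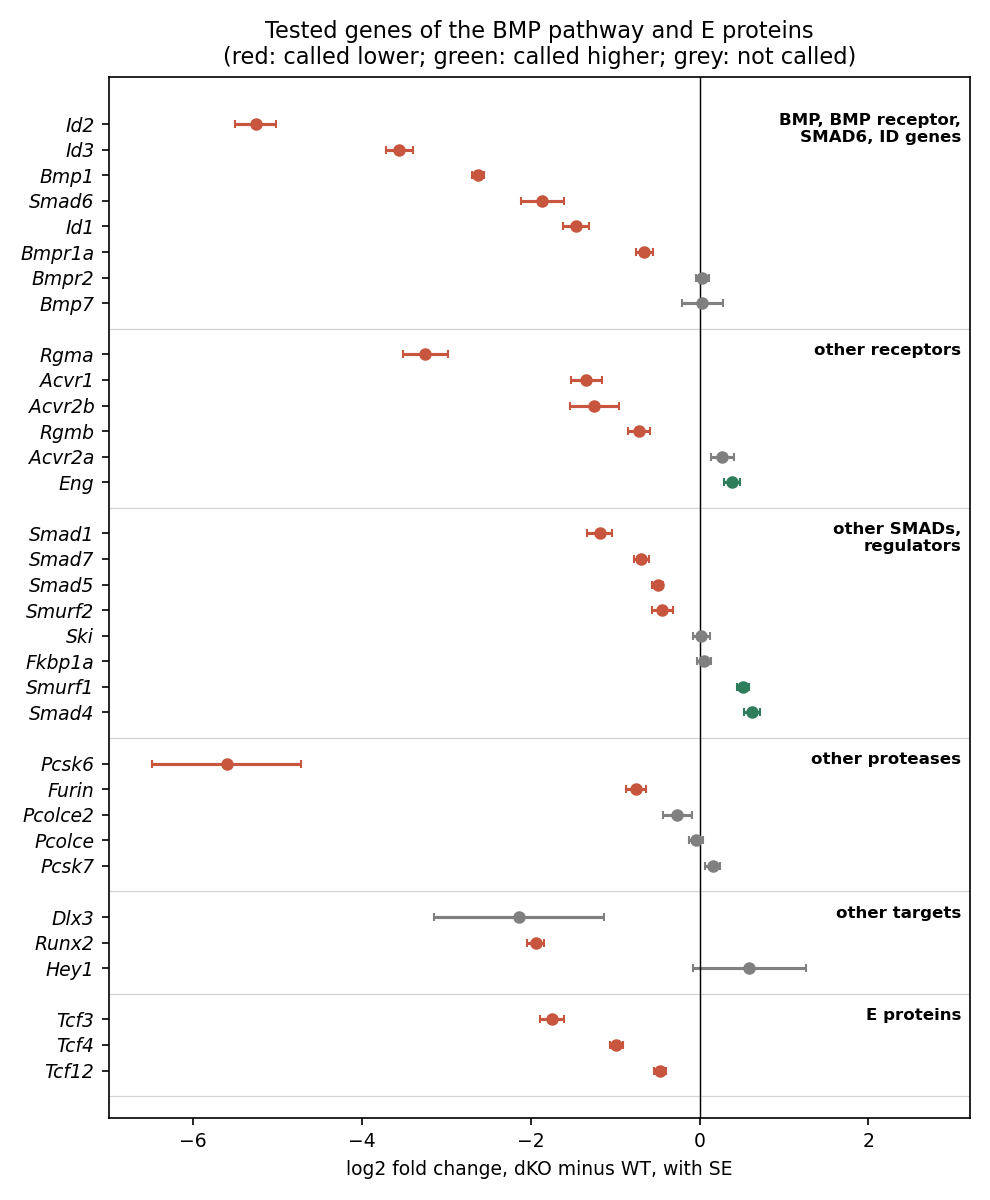
Log2 fold change (dKO minus WT, x axis) with its SE for the 8 tested BMP, receptor, SMAD6 and ID genes and the tested genes of 5 further lists, one gene a row. Red points were called lower, green higher and grey not called; Pcsk6 at -5.61 ± 0.88, Id2 at -5.26 ± 0.24 and Id3 at -3.56 ± 0.16 lie farthest left, and the rises (Eng, Smurf1 and Smad4) are all under 1.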

How the data were processed

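RNA-seq of 6 libraries was analysed. The authors deposited estimated counts per gene, which are whole numbers and not normalized. The tools HISAT2 2.2.1 and StringTie 2.2.1 and the build GRCm38 (mm10) are named in the submitters' processing notes. How counts were made, with which annotation and strand setting, is not given in the sources used here. Values piled up at exactly 4, so a floor of 12 counts per library was set for genes at 0, which covers counting error only. Total counts per library are given with the samples, and levels under 0.243 to 0.314 CPM, depending on the library, were not resolved.

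Symbols, positions and exon lengths came from GENCODE mouse release M21, which matched 48144 of 48820 identifiers. Exon overlaps with other genes are named for some genes and not for all. Counts were fitted in edgeR 4.0.16 under R 4.3.3 (TMM, filterByExpr, robust quasi-likelihood F-test, genotype as the only term), with Benjamini-Hochberg adjustment over 15807 genes and calls at an adjusted p under 0.05. The test was checked on simulated counts. The SE is approximate, being the size of the log2 fold change over the root of F. CPM are given as the mean ± SD of 3 libraries or by library, and ratios used a pseudocount of 1 count. Of 6 planned ratios, the 2 with Bmp4, a gene under the floor, were left out. The adjustment was over the remaining 4 ratios and not over the planned 6.

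The 10 genes, the lists and the tests were chosen with earlier results of these data known. The rule for named genes took the 10 genes, Lats1 and Lats2, up to 4 called genes per other list with at least 5 CPM in the higher group, by smallest adjusted p, any list gene needed to say which gene is highest per length, and the 3 patterns nearest to Id1. Alternatives were other scalings, filters and thresholds, a replicate block, DESeq2 1.42.0, counts divided by 4, and leaving out libraries.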

Additional observations from a re-analysis of the deposited data

How the results depend on the processing

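Of the 10 genes, 6 were called in 15 of 16 alternative settings and 5 when tested against a 1.5-fold change, where Bmpr1a was lost. Log2 fold changes over these settings ran from -5.53 to -5.00 for Id2, -3.76 to -3.43 for Id3, -2.18 to -1.66 for Smad6, -1.68 to -1.35 for Id1 and -0.77 to -0.57 for Bmpr1a. The 25 called genes of the other lists became 16 against a 1.5-fold change, 5 higher and 11 lower in place of 8 and 17, and numbered 23 to 27 elsewhere. Of 666 recomputed fold changes of 42 genes, 647 stayed on their side of the threshold, and 14 lost and 4 gained a call. The sign changed in 10, in the uncalled genes Bmp7, Bmpr2, Ski, Fkbp1a and Pcolce, and 1 of these became a call: Ski, at 0.02, was at -0.15 without WT 2 and dKO 3, a setting chosen after seeing the data (adjusted p = 0.0262). The cause was not tested. With a replicate block, 6 of the 10 genes and 25 of the others were called. Deviations of WT and dKO libraries with the same number correlated at -0.10, 0.11 and 0.16. Those of WT and dKO libraries with different numbers ran from -0.20 to 0.15, a similar range, so this check cannot decide whether the numbers pair the libraries. Over all genes, calls numbered 4556 against a 1.5-fold change and 9060 without it. The differences of the ratios stayed between 3.61 and 4.16 for Id1 to Id2, 2.04 and 2.17 for Id1 to Id3, -2.13 and -1.46 for Id2 to Id3, and -0.78 and -0.65 for Bmpr1a to Bmpr2 over 7 settings. Depth limits Bmp2, Bmp4 and most other ligand genes, for which a level under the floor cannot be told from 0.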
